A study of Mus musculus with 8 samples.

Results

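The 34 genes described here mark T cells and natural killer (NK) cells, and were taken by name from a table of 32098 gene rows, in which all 34 were found. They cover the T cell receptor and its CD3 chains, coreceptors, early signalling proteins, costimulators, lineage transcription factors, killer cell granule genes and NK receptors. The tumours were 8 mouse tumours of 4T1, a mammary carcinoma line that arose in a BALB/c mouse, with the genotype given as WT for all of them. An immune checkpoint inhibitor was the only treatment of 4 tumours (ICI 1, ICI 2, ICI 3, ICI 4), and 4 received radiation as well (RI 1, RI 2, RI 4, RI 5), so all 8 had received an inhibitor and no untreated tumour is among them. The labels give neither the inhibitor, the dose, the time, the host strain nor whether a tumour lay in the irradiated field, and do not state that each tumour came from its own animal. The p-values thus reflect sample-to-sample spread, part of which may be technical. The design text speaks of 3 replicates a group, whereas 4 are listed.

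A T cell recognises antigen through a receptor of an alpha and a beta chain, which signals through the CD3 chains and zeta. The kinase Lck, brought in by CD4 or CD8, starts that signal, Zap70 and the adaptor Lat carry it on, and CD28 or ICOS adds a further signal. NK cells read activating and inhibitory receptors instead, several of them lectin-like proteins encoded side by side in the NK gene complex on chromosome 6. T and NK cells of the killer type share the T-box factors Eomes and Tbx21 and the granule proteins Nkg7 and Ctsw.

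The values are FPKM, fragments scaled by exon length and by the total of the library, and the totals behind them, recovered from the steps between low values, ran from 27013100 to 42622700 fragments. Nuclear genes took 79.96% of the fragments in RI 4 and 91.0% to 96.7% in the other 7 tumours, so a given FPKM in RI 4 stands for a larger share of its nuclear RNA. ICI 1 stood apart by its neutrophil markers, 8 genes with a summed level of 22274.5 FPKM where ICI 2, 3 and 4 had 212 to 664 and the RI tumours 17.3 to 78.9. Epithelial keratins were present in all 8 tumours, and together with Epcam they summed to 947 to 1985 FPKM in ICI and 771 to 1404 in RI over 5 genes. Epcam itself lay at 0.0372 to 5.02 FPKM in ICI and 0 to 1.06 in RI.

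T and NK genes were low in these whole tumours, and few of them differed between the treatments. Only 13 of the 34 reached 1 FPKM in at least 4 tumours, and the highest value of any member in any tumour was 12.9 FPKM. Of these 13, 1 (Trac) fell in RI and 0 rose, by limma on log2(FPKM + 1) with Benjamini-Hochberg adjustment at 0.05 over the 13439 genes tested, of which 6.6% were lower and 11.1% higher. At an unadjusted p under 0.05 the numbers were 1 lower and 0 higher, against 4822 of the 13439 genes in either direction. Calls by limma voom on fragments, at an adjusted p under 0.05, were 1 lower and 0 higher. The 1 in 13 is near the share of all genes that fell. The median log2 difference of the 13 was −0.24, against 0.01 over all genes tested, and 4 of the 13 differences were positive.

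The other 21 members lay below 1 FPKM in most tumours, 16 of them with at least 10 fragments in at least 4 libraries. For these members an exact permutation test was run (two-sided, 70 regroupings of 4 against 4, smallest possible p 0.0286), and a fit over the 17906 genes with 10 fragments in 4 libraries was added after the data had been seen. In that fit, with voom on fragments, Icos and Eomes rose and Trac fell, 2 and 1 of the 29 members with enough fragments, against 7.73% and 3.75% of all genes. The shares of members are close to those of all genes, so none of this sets the T and NK genes apart. All 4 RI values lay above all 4 ICI values for 3 of the 29 (Cd28, Icos and Eomes), as for 13.5% of all genes, and below them for 1 (Trac), as for 9.71% (23.2% in either direction). Xcl1, with fewer fragments, also did not overlap between the groups.

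**Figure D1:**
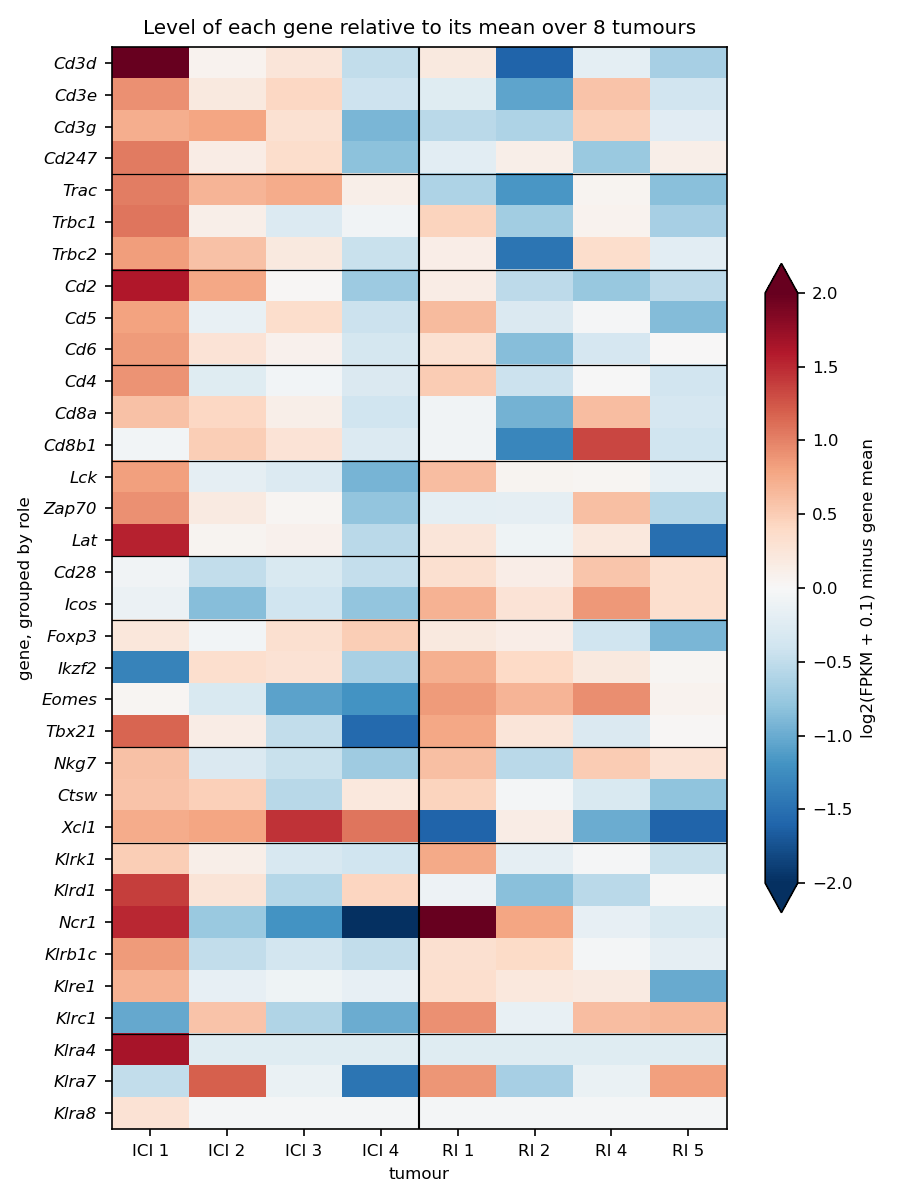
Heat map of all 34 genes (rows, grouped by role) in the 8 tumours (columns), coloured by log2(FPKM + 0.1) minus the mean of the gene over the 8 tumours, with the colour scale ending at −2 and 2. ICI 1 held the highest of the 4 ICI values for 27 of the 34 genes, while Cd28, Icos and Eomes were higher in all RI tumours than in any ICI tumour.

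The constant regions of the T cell receptor were among the highest T cell genes. Trac, the constant region of the alpha chain (chromosome 14, 54220521 to 54224206, GRCm38), was lower in every RI tumour than in any ICI tumour. Trac was 7.01, 5.52, 5.74 and 3.69 FPKM in ICI 1 to 4 and 2.18, 1.46, 3.53 and 1.86 FPKM in RI 1, 2, 4 and 5. It rested on 216, 208, 197 and 147 fragments in ICI 1 to 4 and 55, 44, 120 and 74 in RI 1, 2, 4 and 5. The mean was 5.49 ± 1.37 FPKM in ICI and 2.26 ± 0.897 in RI (SD, n = 4 each), with −1.01 as the log2 difference and 0.22 as its standard error (adjusted p = 0.0211 by limma). In bulk tumours, fewer T cells and less Trac RNA per T cell cannot be told apart. In the added voom fit the adjusted p was 0.0464, and it passed without ICI 1 (0.0466) or RI 4 (0.0470) and did not pass when any of the other 6 libraries was left out (0.0651 to 0.130). In limma the call was lost without RI 1 (adjusted p = 0.0510), RI 2 (0.0584) or RI 5 (0.0539), with no filter (0.0739) and with TPM (0.134). After removal of each library's trends with exon length and GC content, the difference of Trac, with 935 bases of exon, was −0.77 (adjusted p = 0.103).

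The beta chain has a pair of constant genes that are nearly the same, and the fragments that fall in them bear on what can be read from each. Over the 375 coding bases of the first exon, Trbc1 and Trbc2 differ at 1 base, and the longest stretch without a difference is 259 bases. The 120 bases around that difference on chromosome 6 are shown from GENCODE M21 (GRCm38, plus strand, 41538417 to 41538536 for Trbc1 and 41546929 to 41547048 for Trbc2), with the differing base in capitals:
Trbc1: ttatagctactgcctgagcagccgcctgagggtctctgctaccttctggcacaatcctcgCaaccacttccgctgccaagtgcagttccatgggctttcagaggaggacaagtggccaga
Trbc2: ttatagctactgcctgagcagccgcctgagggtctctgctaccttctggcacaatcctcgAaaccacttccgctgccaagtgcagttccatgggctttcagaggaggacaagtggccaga
Fragments within these bases that miss the capital letter cannot be assigned to 1 of the genes, so the value of each is uncertain. Trbc1 was 12.9, 6.62, 5.02 and 5.77 FPKM in ICI 1 to 4 and 8.30, 3.69, 6.35 and 3.79 FPKM in RI 1, 2, 4 and 5. Trbc2 was 9.48, 7.92, 6.06 and 3.84 FPKM in ICI 1 to 4 and 5.78, 1.84, 6.75 and 4.54 FPKM in RI 1, 2, 4 and 5. The groups overlapped for both, with RI 2 among the lowest values and ICI 1 the highest. The mean of Trbc1 was 7.58 ± 3.60 FPKM in ICI and 5.53 ± 2.22 in RI (SD, n = 4 each) (log2 difference −0.37, adjusted p = 0.410 by limma). The mean of Trbc2 was 6.82 ± 2.43 FPKM in ICI and 4.73 ± 2.13 in RI (SD, n = 4 each) (log2 difference −0.49, adjusted p = 0.333 by limma).

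Within a tumour, the level of Trac relative to the beta constant genes also separated the groups. The ratio of Trac to the sum of Trbc1 and Trbc2 was 0.314, 0.379, 0.518 and 0.384 in ICI 1 to 4, whereas the RI tumours 1, 2, 4 and 5 had 0.155, 0.264, 0.269 and 0.223. The ratio does not depend on the size of the library, and the 3 genes have 935, 749 and 692 bases of exon. It was chosen after the values were seen and is a description. The number of receptor chains made per cell was not measured.

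**Figure D2:**
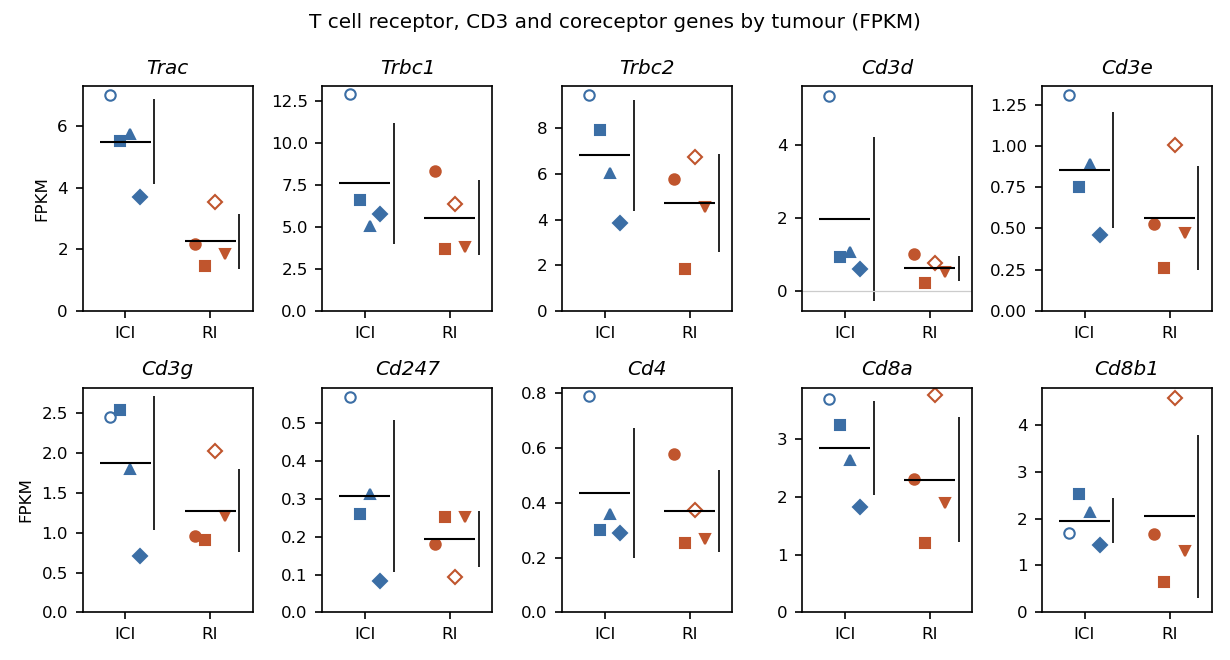
FPKM of the T cell receptor constant genes, the CD3 and zeta chains and the coreceptors in each tumour (y axis, linear, 1 panel a gene), for ICI (blue) and RI (orange). Circles, squares, upward triangles, diamonds and downward triangles are replicates 1, 2, 3, 4 and 5, open symbols are ICI 1 and RI 4, horizontal lines are means and vertical lines ± 1 SD, and Trac is the gene whose groups do not overlap.

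The CD3 chains, which carry the signal of the receptor into the cell, did not pass the test. Cd3g was 2.45, 2.54, 1.80 and 0.712 FPKM in ICI 1 to 4 and 0.963, 0.904, 2.03 and 1.21 FPKM in RI 1, 2, 4 and 5. Its mean was 1.88 ± 0.844 FPKM in ICI and 1.28 ± 0.518 in RI (SD, n = 4 each), and it is the 1 CD3 chain that could be tested with all genes (log2 difference −0.31, adjusted p = 0.426 by limma). Cd3d depended most on a single tumour. Cd3d was 5.32, 0.929, 1.07 and 0.596 FPKM in ICI 1 to 4 and 1.020, 0.223, 0.757 and 0.517 FPKM in RI 1, 2, 4 and 5, so that the ICI mean of 1.98 ± 2.24 FPKM (SD, n = 4) is set by ICI 1. Cd3e was 1.31, 0.754, 0.888 and 0.461 FPKM in ICI 1 to 4 and 0.526, 0.259, 1.004 and 0.472 FPKM in RI 1, 2, 4 and 5. The groups overlapped for all 3 CD3 chains. The two-sided exact permutation p was 0.171 for Cd3d and 0.286 for Cd3e. Cd247, the zeta chain, lay at 0.0838 to 0.570 FPKM in ICI and 0.0929 to 0.251 in RI (exact permutation p = 0.400), and it shares 3007 exon bases with Pou2f1 on the other strand, so that its value is uncertain where counting did not use strand. Pou2f1 itself was 1.015 to 1.37 FPKM in ICI and 2.18 to 2.51 in RI. After adjustment over the 18659 genes below the filter with any signal, the permutation p of none of the 21 members there was under 0.735, which is also the smallest value any gene reached.

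Receptors that T cells use for contact were low. Cd2, the adhesion receptor for CD48, lay at 0.405 to 2.44 FPKM in ICI and 0.395 to 0.8293 in RI, with the highest value in ICI 1. Cd5 and Cd6, scavenger-type receptors that damp receptor signals, lay at 0.138 to 0.462 FPKM in ICI and 0.0762 to 0.398 in RI and at 0.150 to 0.476 FPKM in ICI and 0.0780 to 0.297 in RI. The exact permutation p was 0.229 for Cd2, 0.543 for Cd5 and 0.286 for Cd6. All 3 overlapped between the treatments.

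Of the coreceptors, the CD8 chains were the higher ones in every tumour. Cd8a was 3.68, 3.24, 2.64 and 1.82 FPKM in ICI 1 to 4 and 2.30, 1.21, 3.76 and 1.89 FPKM in RI 1, 2, 4 and 5. Cd8b1 was 1.70, 2.52, 2.15 and 1.44 FPKM in ICI 1 to 4 and 1.67, 0.650, 4.58 and 1.31 FPKM in RI 1, 2, 4 and 5. The groups overlapped for both chains, and RI 4 had the highest and RI 2 the lowest value of each. Cd8a averaged 2.84 ± 0.807 FPKM in ICI and 2.29 ± 1.08 in RI (SD, n = 4 each) (log2 difference −0.26, adjusted p = 0.492 by limma), and Cd8b1 averaged 1.95 ± 0.480 FPKM in ICI and 2.05 ± 1.74 in RI (SD, n = 4 each) (log2 difference −0.09, adjusted p = 0.867 by limma). Cd4, which marks helper T cells and is also found on some myeloid cells, lay at 0.291 to 0.791 FPKM in ICI and 0.254 to 0.578 in RI (exact permutation p = 0.600). The level of Cd8a was 4.66 to 10.7 times that of Cd4 in ICI and 3.98 to 10.02 times in RI.

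The early signalling genes showed no difference that passed. Lck was 3.22, 1.57, 1.46 and 0.891 FPKM in ICI 1 to 4 and 2.78, 1.85, 1.84 and 1.60 FPKM in RI 1, 2, 4 and 5. Zap70 was 2.12, 1.23, 1.11 and 0.581 FPKM in ICI 1 to 4 and 0.928, 0.946, 1.69 and 0.698 FPKM in RI 1, 2, 4 and 5. Both overlapped between the groups, with ICI 1 the highest and ICI 4 the lowest of the 8 tumours. The test gave a log2 difference of 0.16 for Lck (adjusted p = 0.661 by limma) and of −0.11 for Zap70 (adjusted p = 0.766). Lat, the membrane adaptor that Zap70 phosphorylates, lay at 0.493 to 2.39 FPKM in ICI and 0.203 to 0.923 in RI (exact permutation p = 0.486), the highest value again in ICI 1.

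Both costimulators lay higher in RI. Icos, the inducible costimulator of activated T cells (chromosome 1, 60977927 to 61000320), was higher in every RI tumour than in any ICI tumour. Icos was 0.575, 0.304, 0.453 and 0.322 FPKM in ICI 1 to 4 and 1.08, 0.780, 1.23 and 0.821 FPKM in RI 1, 2, 4 and 5. These values rested on 65, 42, 57 and 47 fragments in ICI 1 to 4 and 100, 86, 153 and 120 in RI 1, 2, 4 and 5. The mean was 0.413 ± 0.127 FPKM in ICI and 0.976 ± 0.213 in RI (SD, n = 4 each), a ratio of 2.36, with an exact permutation p of 0.0286 (two-sided), the smallest that 4 against 4 allows. In the added fit with voom on fragments the log2 difference was 1.27 ± 0.36 (standard error, adjusted p = 0.0471), and with limma on FPKM over the same genes, of which 6.76% were called higher and 3.83% lower, the adjusted p was 0.0465. With a pseudocount of 0.1 it was 0.0583, with the length and GC trends also removed 0.0722, with no filter 0.131, and with voom it passed without ICI 1 (0.0306) and did not pass when any of the other 7 libraries was left out (0.0729 to 0.137).

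Cd28, the costimulator of naive T cells, lies near Icos on chromosome 1 and also did not overlap between the groups. Cd28 was 0.218, 0.138, 0.169 and 0.138 FPKM in ICI 1 to 4 and 0.314, 0.264, 0.391 and 0.322 FPKM in RI 1, 2, 4 and 5. The counts were 44, 34, 38 and 36 fragments in ICI 1 to 4 and 52, 52, 87 and 84 in RI 1, 2, 4 and 5. The mean was 0.166 ± 0.0379 FPKM in ICI and 0.323 ± 0.0520 in RI (SD, n = 4 each), with an exact permutation p of 0.0286, and the voom fit gave a log2 difference of 0.99 ± 0.38 (standard error, adjusted p = 0.109), so Cd28 did not pass. The level of Icos was 2.20 to 2.68 times that of Cd28 in ICI and 2.55 to 3.43 times in RI. Relative to Cd3g it was 0.119 to 0.452 in ICI and 0.605 to 1.12 in RI, ratios chosen after the values were seen.

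Among the lineage factors, Eomes stood out. Eomes is a T-box factor of NK cells and of effector and memory CD8 T cells (chromosome 9, 118478212 to 118486132). Eomes was 0.570, 0.430, 0.210 and 0.187 FPKM in ICI 1 to 4 and 1.08, 0.950, 1.14 and 0.587 FPKM in RI 1, 2, 4 and 5. It rested on 78, 72, 32 and 33 fragments in ICI 1 to 4 and 121, 127, 173 and 104 in RI 1, 2, 4 and 5. The RI values lay above the ICI values, with RI 5 just above ICI 1, and they overlapped after upper-quartile scaling or rescaling to nuclear fragments. The mean was 0.349 ± 0.183 FPKM in ICI and 0.940 ± 0.249 in RI (SD, n = 4 each), a ratio of 2.69, with an exact permutation p of 0.0286. The voom fit gave a log2 difference of 1.53 ± 0.44 (standard error, adjusted p = 0.0497), limma on FPKM over the same genes an adjusted p of 0.0519, and a pseudocount of 0.1 one of 0.0636. With the pseudocount of 0.1 and the length and GC trends removed it was 0.0626. With voom, Eomes passed without ICI 1 (0.0202), and without any of the other 7 libraries the adjusted p ran from 0.0513 to 0.152. Eomes shares 118 exon bases with Gm33460 on the other strand, which lay at 0.966 to 2.08 FPKM in ICI and 1.38 to 2.44 in RI.

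The other 3 factors overlapped between the treatments. Tbx21, the T-box factor of type 1 helper T cells and NK cells, was at 0.0472 to 0.866 FPKM in ICI and 0.254 to 0.640 in RI (exact permutation p = 0.743), with its lowest value in ICI 4. The level of Eomes was 0.658 to 3.95 times that of Tbx21 in ICI and 1.68 to 4.50 times in RI. Foxp3, the factor of regulatory T cells, had 25, 22, 31 and 43 fragments in ICI 1 to 4 and 20, 22, 12 and 4 in RI 1, 2, 4 and 5. That makes 0.173 ± 0.0423 FPKM in ICI and 0.101 ± 0.0667 in RI (SD, n = 4 each) (exact permutation p = 0.143). The gene shares 853 exon bases with Flicr on its own strand. On the other strand it shares 590 with Ccdc22, 373 with Gm36995 and 266 with Ppp1r3f. Ikzf2, the factor Helios of regulatory T cells, was the best covered factor, with 103 to 504 fragments over 11613 bases of exon, and lay at 0.269 to 1.08 FPKM in ICI and 0.855 to 1.42 in RI (log2 difference 0.31, adjusted p = 0.314 by limma).

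**Figure D3:**
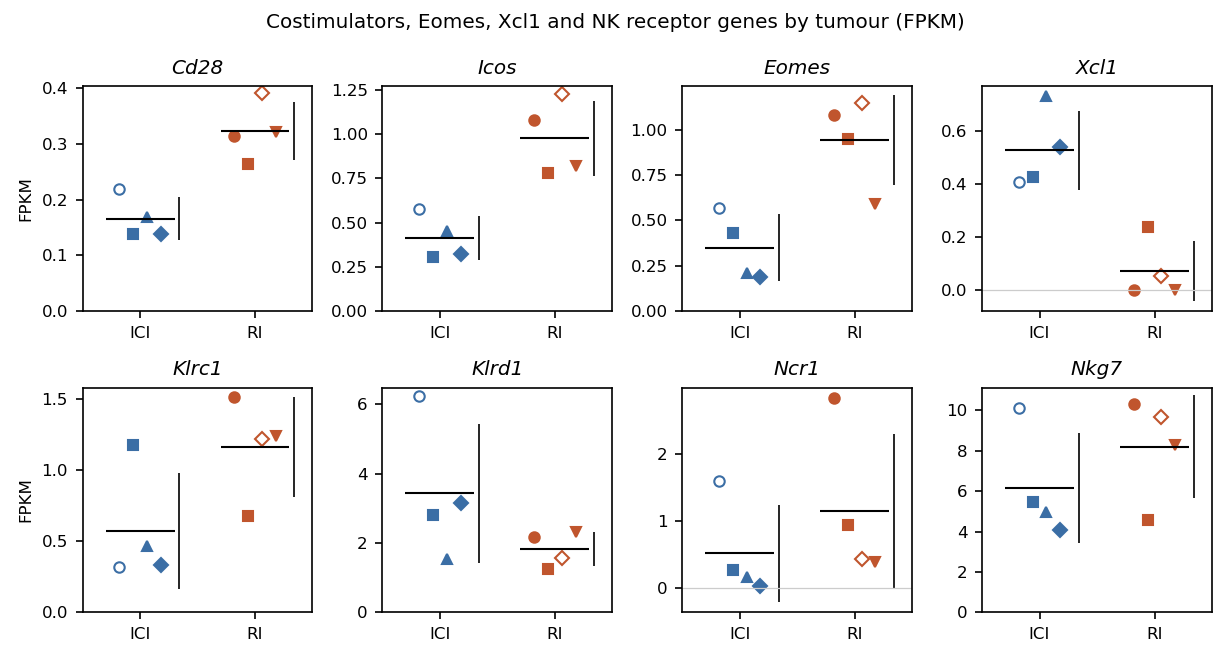
FPKM of the costimulators, Eomes, Xcl1 and 4 genes of killer lymphocytes in each tumour (y axis, linear, 1 panel a gene), with colours, symbols and lines as in the plot of the T cell receptor genes. Cd28, Icos and Eomes are higher and Xcl1 is lower in all 4 RI tumours than in any ICI tumour, whereas Klrc1, Klrd1, Ncr1 and Nkg7 overlap.

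The granule genes did not pass. Nkg7, a protein of the cytotoxic granule that killing requires, was one of the highest members. Nkg7 was 10.1, 5.48, 4.95 and 4.06 FPKM in ICI 1 to 4 and 10.3, 4.59, 9.65 and 8.27 FPKM in RI 1, 2, 4 and 5. The mean was 6.16 ± 2.71 FPKM in ICI and 8.21 ± 2.56 in RI (SD, n = 4 each) (log2 difference 0.38, adjusted p = 0.368 by limma). Ctsw, a cysteine protease of killer lymphocytes, lay at 1.31 to 2.98 FPKM in ICI and 1.09 to 2.73 in RI (log2 difference −0.24, adjusted p = 0.481 by limma). Both overlapped, with ICI 1 among the high values and RI 2 among the low values of Nkg7.

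Xcl1, the chemokine by which NK and CD8 T cells attract cross-presenting dendritic cells (chromosome 1, 164931644 to 164935527, minus strand), was lower in RI. It had 7, 9, 14 and 12 fragments in ICI 1 to 4 and 0, 4, 1 and 0 in RI 1, 2, 4 and 5. Xcl1 was 0.406, 0.427, 0.729 and 0.539 FPKM in ICI 1 to 4 and 0, 0.238, 0.0526 and 0 FPKM in RI 1, 2, 4 and 5. A count of 0 allows up to 3 fragments. The groups did not overlap, with an exact permutation p of 0.0286 (two-sided), and limma with no filter, which called 0.751% of 32098 genes, gave a log2 difference of −0.51 and an adjusted p of 0.0818, so Xcl1 did not pass.

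The promoters of Eomes and Xcl1 are shown since these genes separated the groups in opposite directions. The 250 bases before the RefSeq start sites (GRCm38.p6) are printed 5′ to 3′ on the strand of the gene, with matches to a T-box core (GGTGTGA) and a RUNX core (TGTGGT), on either strand, in capitals:
Eomes, chr9:118477939-118478188, plus strand: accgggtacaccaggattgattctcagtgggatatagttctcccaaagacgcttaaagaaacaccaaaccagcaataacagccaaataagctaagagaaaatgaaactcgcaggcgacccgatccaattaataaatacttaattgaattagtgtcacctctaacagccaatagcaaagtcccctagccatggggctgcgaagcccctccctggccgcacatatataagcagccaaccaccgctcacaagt
Xcl1, chr1:164935523-164935772, minus strand: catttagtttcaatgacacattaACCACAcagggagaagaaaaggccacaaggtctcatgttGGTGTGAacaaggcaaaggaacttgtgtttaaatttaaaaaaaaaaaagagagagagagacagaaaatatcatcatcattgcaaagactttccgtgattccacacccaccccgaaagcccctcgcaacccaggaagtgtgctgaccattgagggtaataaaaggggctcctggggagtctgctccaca
The Xcl1 window holds 1 match of each, the RUNX letters starting 227 and the T-box letters 188 bases before the start, and the Eomes window holds neither. Of the 32851 windows of this length in the table, 3.33% hold the T-box letters and 14% the RUNX letters. For 22 of the 34 members a promoter was matched, and of these 2 (Nkg7 and Xcl1) hold the T-box letters and 9 the RUNX letters in at least 1 of their start sites. Counted by window, as the percentages are, 2 of 30 member windows hold the T-box letters and 10 of 30 the RUNX letters. A match is only a run of letters, and binding was not measured.

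Of the NK receptors, Klrd1 (CD94) and Klrc1 (NKG2A), which pair into an inhibitory receptor for the non-classical class I molecule Qa-1, had differences of opposite sign. Klrd1 was 6.23, 2.81, 1.53 and 3.16 FPKM in ICI 1 to 4 and 2.17, 1.26, 1.57 and 2.31 FPKM in RI 1, 2, 4 and 5. Klrc1 was 0.321, 1.17, 0.467 and 0.332 FPKM in ICI 1 to 4 and 1.51, 0.674, 1.22 and 1.24 FPKM in RI 1, 2, 4 and 5. The groups overlapped for both, with ICI 1 the highest of Klrd1 and the lowest of Klrc1. Neither passed (Klrd1 log2 difference −0.56, adjusted p = 0.197 by limma, and Klrc1 log2 difference 0.47, adjusted p = 0.153 by limma). For Klrc1 the voom fit gave a log2 difference of 1.15 ± 0.50 (standard error, adjusted p = 0.152).

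The activating receptors did not pass. Ncr1 (NKp46), a receptor found mainly on NK cells, ranged widely. Ncr1 was 1.60, 0.258, 0.159 and 0.0305 FPKM in ICI 1 to 4 and 2.84, 0.929, 0.428 and 0.381 FPKM in RI 1, 2, 4 and 5, from 2 fragments in ICI 4 to 118 in RI 1. Without ICI 1 the RI values would all lie above the ICI values, and with it the exact permutation p was 0.343. Klrk1 (NKG2D), a receptor for stress-induced ligands, lay at 0.465 to 0.947 FPKM in ICI and 0.447 to 1.16 in RI (p = 0.8286 by exact permutation). Klre1, a partner of the KLRI receptors, had 4 to 36 fragments and Klrb1c, the NK1.1 antigen, 0 to 15. The exact permutation p was 0.743 for both of these.

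Of the Ly49 receptors, which bind class I molecules of the mouse, the members Klra4, Klra7 and Klra8 were close to undetected. Klra2, a Ly49 gene outside the members and named after its values were seen, lay at 2.43 to 13.8 FPKM in ICI and 4.53 to 7.29 in RI. Whether NK cells or other cells made the Klra2 RNA was not tested. Klra4 had 11 fragments and Klra8 1 fragment, all in ICI 1, and 0 in the other 7 libraries, where 0 allows up to 3 fragments, or 0.0565 to 0.0943 FPKM for these genes. Klra7 had 4, 27, 7 and 0 fragments in ICI 1 to 4 and 14, 3, 7 and 21 in RI 1, 2, 4 and 5. The content of the Ly49 cluster differs between mouse strains, the assembly is that of C57BL/6J and 4T1 is of BALB/c origin, so fragments at these models may come from related genes, and absence of a gene and absence of its RNA cannot be told apart. No fold is given for Klra4 and Klra8.

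**Figure D4:**
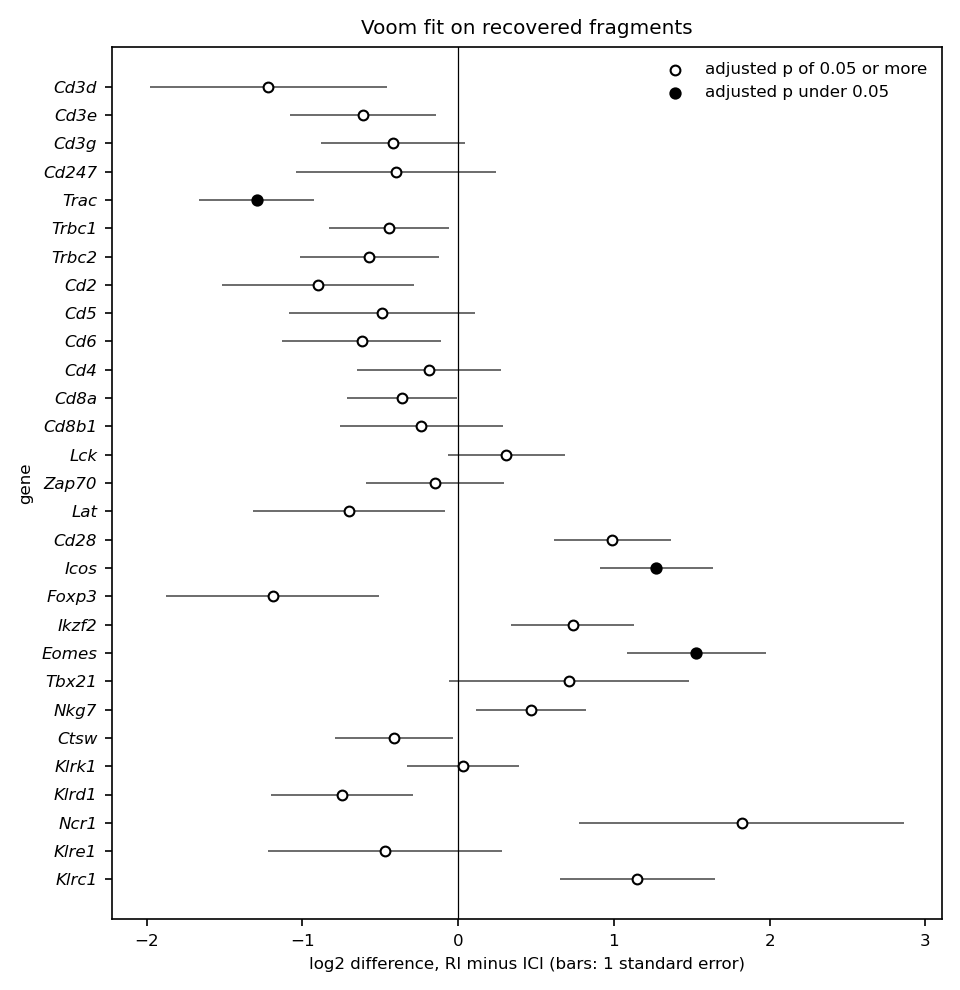
Log2 difference RI minus ICI (x axis) of the 29 members with at least 10 fragments in at least 4 libraries, in the order of their roles, by limma voom on recovered fragments. Points are estimates and bars 1 standard error, and the filled points, Trac below 0 and Icos and Eomes above 0, had an adjusted p under 0.05.

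The wider T cell receptor pathway did not pass either. Of 29 other signalling genes 10 could be tested and 0 rose or fell by limma, with 0 at an unadjusted p under 0.05, and in the voom fit 0 of 29 were called, with 2 at an unadjusted p under 0.05. Over all genes, 4822 of 13439 had an unadjusted p under 0.05 by limma and 5292 of 17906 by voom. Cd27, a costimulator of the TNF receptor family, had the smallest p of the 10 genes tested by limma, with 1.40 ± 0.593 FPKM in ICI and 0.722 ± 0.275 in RI (SD, n = 4 each), with an adjusted p of 0.146. In voom the smallest p of the 29 was that of Txk, a kinase of the Tec family, with 0.131 ± 0.0541 FPKM in ICI and 0.291 ± 0.0819 in RI and a log2 difference of 1.25 (adjusted p = 0.0702), a gene named after its values were seen. Of 18 genes of naive, memory and homing T cells 10 could be tested, and 0 were called, with 3 at an unadjusted p under 0.05 (Klf2, Gata3 and Cxcr3), and voom called 0 of 18, with 1 at an unadjusted p under 0.05. Klf2, a factor that keeps homing receptors on, was 99.2 ± 131.7 FPKM in ICI and 10.5 ± 3.76 in RI, with an adjusted p of 0.107. Its ICI values ran from 16.3 to 293 FPKM, and which cells made this RNA was not tested. Gata3, a factor of T cell development and type 2 helper cells that is also made in mammary epithelium, had the opposite sign, with 9.11 ± 2.32 FPKM in ICI and 12.7 ± 1.45 in RI (SD, n = 4 each), an adjusted p of 0.111, and was the gene at an unadjusted p under 0.05 in voom. Cxcr3, the receptor for interferon-induced chemokines, was 10.9 ± 2.86 FPKM in ICI and 7.56 ± 0.605 in RI, with an adjusted p of 0.120. The median log2 difference was −0.28 in the first and −0.31 in the second list.

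Among other genes of NK cells, Klrg1 rose. Klrg1, an inhibitory cadherin receptor of mature NK and effector T cells, was 0.0665 to 0.614 FPKM in ICI and 1.39 to 2.17 in RI, with means of 0.313 ± 0.260 and 1.80 ± 0.361 (SD, n = 4 each; log2 difference 1.11, adjusted p = 0.0138 by limma). It passed whichever library was left out. Il2rb, the shared receptor chain for interleukins 2 and 15, was the other of 11 tested genes that rose, and 0 fell. It lost the call without ICI 4 (adjusted p = 0.0535), RI 1 (0.0578), RI 2 (0.0508) or RI 4 (0.0524), with no filter (0.0773) and with TPM (0.105). The list had a median of −0.18. Of all genes tested, 11.1% were called higher by limma and 7.73% by voom. In the voom fit 3 of 24 in the list were called. The other one was Sh2d1b2, an adaptor of NK receptors, at 0 to 0.390 FPKM in ICI and 0.600 to 1.36 in RI (adjusted p = 0.0421), a gene named after its values were seen. Of 7 gamma delta T cell genes 0 reached the 1 FPKM filter. By voom 0 of 3 were called, with 1 at an unadjusted p under 0.05, as were 5292 of all 17906 genes.

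Of 8 killing effectors 5 could be tested by limma, of which 4 rose and 0 fell, and voom called 3 of 8 higher and 0 lower. Of all genes tested, 11.1% were called higher by limma and 7.73% by voom. The effectors that rose by limma were Prf1, Gzma, Gzmb and Serpinb9, which are perforin, granzymes A and B and an inhibitor that shields the killer cell. Srgn, a granule proteoglycan, had a log2 difference of −0.40 by limma (adjusted p = 0.506). The others did not pass in voom, with log2 differences of −0.58 for Gzmk, −0.13 for Gzmm and 0.88 for Fasl. Serpinb9 was 3.56 to 4.92 FPKM in ICI and 7.49 to 11.6 in RI (log2 difference 0.93, adjusted p = 0.0138). It passed with each library left out and lost the call with TPM (0.134) and with no filter (0.0523). With TPM its log2 difference was 1.10 with a standard error of 0.40, against a standard error of 0.16 in the main fit. Prf1, Gzma and Gzmb passed with TPM (adjusted p of 6.97e-06 or less by limma). Their standard errors there were 0.41, 0.40 and 0.42, against 0.45, 0.44 and 0.65 in the main fit. With TPM, Serpinb9, Prf1, Gzma and Gzmb thus had nearly the same standard error. The TPM p-values therefore do not measure the spread of each gene between replicates. Prf1 was 1.28 to 9.001 FPKM in ICI and 21.4 to 34.1 in RI (adjusted p = 0.0153 by limma), and 0.0537 with no filter. Gzma did not pass without ICI 4 (0.0706) or RI 2 (0.0626) or with no filter (0.0739). With no filter Gzmb did not pass (0.122), and when 1 library was left out it passed without ICI 2 only (adjusted p of 0.0628 to 0.115 without each of the other 7 libraries) and was not called by voom (0.0615). Whether these genes changed more than the identity genes was not tested.

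The ligands of these receptors did not pass. Of 12 tested ligands of T and NK cell receptors 0 rose or fell by limma, with 1 at an unadjusted p under 0.05, and voom called 0 of 13, with 1 at an unadjusted p under 0.05. That one in limma was Ulbp1, a ligand of NKG2D, with 8.81 ± 1.56 FPKM in ICI and 14.004 ± 5.27 in RI (SD, n = 4 each; adjusted p = 0.105). Of all genes, 4822 of 13439 were at an unadjusted p under 0.05 by limma and 5292 of 17906 by voom. The median log2 difference of the list was 0.03.

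Some markers of other cells differed between the treatments, and their part in the values above was not tested. Of all genes tested, limma called 11.1% higher and 6.6% lower, and voom 7.73% and 3.75%. An unadjusted p under 0.05 was reached by 4822 of 13439 genes in limma and 5292 of 17906 in voom. Of 10 macrophage and monocyte markers 2 rose (Adgre1 and Mrc1) and 0 fell, with 3 at an unadjusted p under 0.05 in either fit. Their summed level was 510 to 844 FPKM in ICI and 647 to 1322 in RI. Of 5 tested mast cell and basophil markers 2 rose by limma (Cpa3 and Tpsb2) and 0 fell, and 0 of 6 were called by voom. At an unadjusted p under 0.05 there were 4 by limma and 5 by voom. The 6 genes summed to 2.74 to 10.1 FPKM in ICI and 14.2 to 43.5 in RI. Of 7 tested neutrophil markers 2 fell by limma (S100a8 and S100a9) and 0 rose, and 0 of 8 were called by voom. At an unadjusted p under 0.05 there were 7 by limma and 3 by voom, and the median log2 difference by limma was −4.07. B cell and plasma cell markers summed to 6.11 to 42.4 FPKM over 7 genes in ICI and 1.64 to 5.69 in RI, and 0 of 2 tested were called, with 1 at an unadjusted p under 0.05 and 0 of 4 called by voom. Dendritic cell markers, 9.10 to 17.2 FPKM over 8 genes in ICI and 5.78 to 19.8 in RI, had 0 of 2 tested called by limma, 0 at an unadjusted p under 0.05, and 0 of 6 called by voom. Of 7 fibroblast and vessel markers Col1a1 and Col1a2 rose, with 3 at an unadjusted p under 0.05 in either fit. Of 4 tested epithelial markers 0 were called, with 2 at an unadjusted p under 0.05 and 0 of 5 called by voom. No marker of these lists was at 0 in all 8 tumours.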

How the data were processed

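RNA of 8 tumours had been sequenced, and the authors deposited FPKM, 1 column per tumour, in a table of 32098 rows. The submitters' processing notes name HISAT2 and GRCm38 (mm10) with no version. Sources used here do not give the counter, strand setting, annotation or filters. Groups and replicate numbers are from the sample titles.

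The 13439 genes that reached 1 FPKM in 4 or more tumours were tested as log2(FPKM + 1), which understates the change of low genes, with limma 3.58.1 in R 4.3.3 (robust eBayes with a trend, two-sided). Benjamini-Hochberg adjusted p under 0.05 were called, and every adjusted p not otherwise named is from this fit. Exon length and GC content came from GENCODE M21 (GRCm38), matched by identifier for 31407 rows. The value of 1 fragment was found per library from low FPKM times exon length, and 98.6% to 98.8% of values of up to 50 fragments lay within 0.05 of a whole number. Replicates all differed beyond sampling noise, with a lowest chi-square of 37.08 for each gene between RI 1 and RI 2. The fit was tested on simulated data. Trends on length and GC content were removed by lowess, span 0.3.

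The members and gene lists were chosen with earlier results of these data known. All 34 members are named. Of other lists the called genes are named, or up to 3 with the smallest p. Exact permutation tests used log2(FPKM + 1). Intervals of counting error assume independent fragments, and PCR copies are not marked.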

Additional observations from a re-analysis of the deposited data

Results flagged for a closer look

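Of 66 sets of 4 values (a member in a treatment group), 9 had 1 tumour far from the other 3, by Dixon's test at its 95% limit. Chance flags about 1 in 20 groups of normally distributed values, and the sets share their tumours. A set with signal in 1 tumour alone is always flagged, as for Klra4 and Klra8 in ICI. In 8 of the 9 the tumour was ICI 1, and in 1 it was ICI 2. ICI 1 held 5.32 FPKM of Cd3d against 0.596 to 1.07 in the other ICI tumours, 0.791 of Cd4 against 0.291 to 0.358 and 2.39 of Lat against 0.493 to 0.817. Among the NK receptors, ICI 1 held 1.60 FPKM of Ncr1 against 0.0305 to 0.258, 0.313 of Klre1 against 0.128 to 0.140 and 0.154 of Klrb1c against 0 to 0.00920. The Ly49 genes Klra4 and Klra8 were seen in ICI 1 alone, at 0.268 and 0.0258 FPKM. ICI 2 held 1.17 FPKM of Klrc1 against 0.321 to 0.467 in the other ICI tumours. ICI 1 is also the tumour with the high neutrophil markers, and their part in these values was not tested.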

How the results depend on the processing

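Whole tumours, 4 a group and few T or NK cell fragments limit what can be detected. The number of genes called, 2373, fell to 241 with no filter, 280 with TPM, 22 with a replicate block and 2 with the block and the length and GC trends removed. The block compares only tumours with shared replicate numbers, as given below. Leaving out 1 library gave 336 (without ICI 4) to 2693 genes (without ICI 1), with 999, 672 and 1017 without RI 1, RI 2 and RI 5. Of called genes 62.6% were higher in RI, and 48.03% with median centring. TPM moved the median of all genes to 0.11. It also gave genes of unlike spread nearly the same standard error, as 0.45 for Klrg1 and 0.40 for Il2rb, against 0.20 and 0.22 in the main fit. Calls kept or lost with TPM thus do not rest on the spread of each gene. Members called higher numbered 0, but 1 with limma and 2 with voom over genes with 10 fragments in 4 libraries (added after seeing the data), and 0 in each leave-one-out of limma over the 13439 genes. In the leave-one-out of the added voom fit, Icos and Eomes were called without ICI 1 and neither was called without any other single library. Members called lower numbered 1 (Trac), but 0 with no filter, TPM, the block, the trends removed, both together, and the 10-fragment filter with a pseudocount of 0.1 and the trends removed, and 0 to 1 in leave-one-out. Members below the filter whose groups did not overlap numbered 4 of 21, and 3 to 6 under the alternatives. The share among all genes below the filter was not counted. Over the 17906 genes with 10 fragments in 4 libraries, a set without Xcl1, it was 23.2%. With a library left out fewer values have to separate, so the counts of 5 and 6 there cannot be set against 4.

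The shared replicate numbers 1, 2 and 4 gave no sign of pairing: same-numbered deviations correlated at −0.0923, −0.120 and −0.124, and 0 of 6 libraries correlated best with their own number. Whether same-numbered tumours shared a batch cannot be told from this check. With the block Trac was −0.93 (adjusted p = 0.133 by limma), and −0.70 (0.348) with the trends also removed. The block also ended the calls of Klrg1 (0.0902), Il2rb (0.0937), Prf1 (0.103), Serpinb9 (0.0842) and Gzmb (0.191). Their log2 differences with the block were 1.19, 1.10, 2.81, 1.06 and 2.66, against 1.11, 0.97, 2.51, 0.93 and 2.25 in the main fit. Gzma kept its call with the block (0.0427) and lost it with the trends also removed (0.103).

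Signs reversed in uncalled members, and the cause was not tested. Cd8b1 was 0.0275 with the block, 0.0744 with the trends removed, 0.21 with both, and −0.43 (without RI 4) to 0.15 (without RI 2) when 1 library was left out. Zap70 was 0.0273 with the trends removed, 0.13 with the block added, −0.27 (without ICI 4) to 0.0584 (without ICI 1) when 1 library was left out, and 0.0177 with the 10-fragment filter, pseudocount 0.1 and the trends removed, where Klrk1 was −0.0485. Lck ran from −0.000624 (without ICI 4) to 0.39 (without ICI 1). In voom, Klrk1 was −0.0657, −0.12 and −0.20 without ICI 3, ICI 4 and RI 1, Cd4 0.11 without ICI 1 and 0.0557 without both ICI 1 and RI 4, where Cd247 was 0.31, Tbx21 −0.0873 without ICI 4 and Klre1 0.32 without RI 5.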

Other observations

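The gene segments from which receptors are built were also counted. The 52 alpha variable segments in the table took 72, 69, 48 and 107 fragments in ICI 1 to 4, and 36, 22, 42 and 37 in RI 1, 2, 4 and 5. Relative to the total of each library, RI 1 lay just above ICI 3 and the other RI tumours below all ICI tumours. The 16 beta variable segments took 32, 36, 38 and 16 fragments in ICI 1 to 4, and 20, 21, 91 and 46 in RI 1, 2, 4 and 5, so the groups overlapped.

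Outside the 34 genes, 3 receptor genes, chosen after their values were seen, differed in level between tumours. Trgc2, a gamma chain constant gene, lay at 0.715 to 3.02 FPKM in ICI and 0.128 to 0.632 in RI (voom adjusted p = 0.0748). Klrb1b, an inhibitory NK receptor, lay at 0.563 to 2.40 FPKM in ICI and 0 to 1.01 in RI (voom adjusted p = 0.0725). Klra17 was 30.7 FPKM in ICI 1, and at most 0.704 FPKM in RI (voom adjusted p = 0.346).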
